A study of Homo sapiens with 75 samples.

Results

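Gene expression with an isotype control antibody was compared with PBS in GRANTA-519, an established human mantle cell lymphoma line. The comparison uses 3 arrays of cells given the isotype antibody and 3 arrays of cells given PBS, 6 of the 75 arrays in all, chosen by the line and treatment in their labels. The study treated 5 such lines, GRANTA-519, Z138, HBL-2, JEKO-1 and REC-1, with PBS, isotype, GA101 (obinutuzumab), rituximab, or GA101 and rituximab together, on 3 arrays each. GA101 and rituximab bind CD20, a B cell surface protein, and were used at 10 µg/ml each. All cells grew in RPMI1640 medium with 20% fetal bovine serum, and the labels name no genetic change. The labels give neither the isotype's clone, source and concentration nor the treatment time. Nothing says that replicates were separate cultures, so p-values measure the spread between these arrays, which may be technical.

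An isotype control shares the constant region of a therapeutic antibody but has no intended target on the cell. It is used to separate what any immunoglobulin, its buffer and its handling do from what target binding does, and PBS is the control without immunoglobulin. When oxygen is short, hypoxia-inducible factors are no longer degraded and switch on genes for blood vessel growth, sugar uptake and growth restraint. Genes of the G2 and M phases of the cell cycle rise as cells approach division and are silenced in resting cells.

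Intensities on the 15 GRANTA-519 arrays had the same mean, 172, on each array as deposited. The median intensity of an array was 12.61 to 13.98 with isotype, 11.2 to 14.1 with PBS and 13.1 to 15.7 with antibodies against CD20, and the highest share of probe sets at 0 was 8.86%, on PBS replicate 1. The ratio of 3′ to 5′ probe sets for actin, a measure of RNA integrity, was log2 0.78 to 1.04 with isotype and 0.66 to 0.84 with PBS, and its part in the results was not tested. All 7 B cell and mantle cell lymphoma markers measured lay above the median of all probe sets (11.7) with PBS. With isotype all but CD5 did, which averaged 11.4 against 23.5 with PBS. Summed over each list, T and NK cell markers gave 552 to 609 with isotype and 584 to 665 with PBS, and myeloid markers 71.9 to 101 and 70.0 to 107. Above that median in either arm were 3 of 13 T and NK cell markers, led by CD28 at 459 and 517, and 4 of 9 myeloid markers. The T cell receptor chains CD3D (6.18 and 2.66), CD3E (8.49 and 4.95) and CD3G (5.55 and 6.39) and the monocyte receptor CD14 (listed at 0 with isotype, 2.31 with PBS) were near background. Of 40 listed markers of other cell types, 21 passed the intensity filter and were tested, and 0 of these were called. The other 19, CD3E and CD14 among them, were not tested. Expression of CD20 itself (MS4A1) was 6492 ± 52.5 with isotype and 6294 ± 155 with PBS (SD, n = 3), a log2 difference of 0.04 (adjusted p = 0.93, limma) that was -0.05 after quantile normalization. Cyclin D1 (CCND1), the oncogene of this lymphoma, differed by 0.02 (adjusted p = 1), with -0.04 after quantile normalization.

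Few genes separated the arms, and most of those that did were lower with the isotype antibody. Of 13870 genes tested, 114 (0.822%) passed an adjusted p of 0.05 in limma, here named called: 36 (0.26%) were higher with isotype and 78 (0.562%) lower. Named falls included ADM, DDIT4, ANKRD37, a ribosomal RNA precursor (RNA45SN5) and TXNIP. The median change over all genes was -0.03, on the log2 scale used for every change below. In 89 of the 114 called genes the 3 and 3 arrays did not overlap and both arms were above the median intensity, a separation of arrays that 12.3% of all genes tested also showed. Among those 89, 5 fell by more than 2-fold (ADM, DDIT4, SCAMP4, ANKRD37 and RNA45SN5) and 0 rose by as much. The remaining 25 were dim or had overlapping arrays. The largest changes of all were among these. KCNQ1, a potassium channel, read 0.97, 0.98 and 1.0 with isotype and 13.2, 7.89 and 11.1 with PBS, and LINC01355, a long noncoding RNA, read 21.3, 33.2 and 23.0 against 1.01, 6.90 and 3.02. The lower arm of KCNQ1 lay at or below the floor of 1, so its fold change depends on that floor. The lower arm of LINC01355 was dim but above 1, and with a floor of 16 its change was 0.66 (adjusted p = 0.464). The other LINC01355 probe set gave -0.10, and averaging the probe sets ended its call (adjusted p = 0.3). Both genes were singled out after their values were seen.

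The count of called genes rests on a spread pooled over all 75 arrays. With the 15 GRANTA-519 arrays alone 17 genes were called, and with the 6 control arrays alone 4: DDIT4, ANKRD37, RNA45SN5 and U2SURP. Centring each array on its median intensity left 33.

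**Figure D1:**
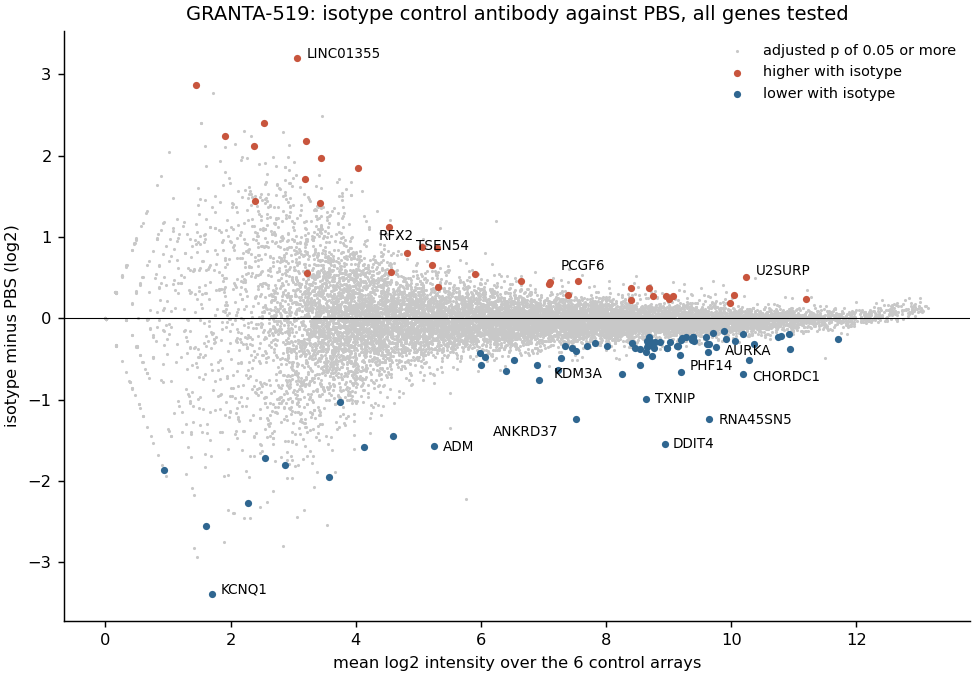
Each point is 1 of 13870 genes, with the mean log2 intensity over the 6 control arrays on the horizontal axis and the isotype minus PBS change (log2) on the vertical axis. Called genes are coloured, 36 higher in red and 78 lower in blue, among them ADM (-1.57), DDIT4 (-1.55), SCAMP4 (-1.45), ANKRD37 (-1.24) and RNA45SN5 (-1.24) below 0, and the spread widens at low intensity.

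Hypoxia-inducible genes were prominent among the largest falls. Of 20 tested members of the hypoxia and glycolysis list, 5 (25%) fell and 0 rose, where 0.562% of all genes fell. The 5 were ADM, DDIT4, ANKRD37, KDM3A and VEGFA. The list's median was -0.25, against -0.03 for all genes, and 17 of the 20 values were below 0. DDIT4 encodes REDD1, an inhibitor of mTORC1 that responds to hypoxia and other stress. Its intensity was 282, 310 and 272 with isotype and 905, 789 and 836 with PBS. The 3 isotype arrays lay far below all PBS arrays, and the isotype level was 2.93-fold lower (-1.55 ± 0.179, SE; adjusted p = 1.77e-08).

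ADM encodes adrenomedullin, a secreted vasodilator peptide. It read 21.3, 26.4 and 19.0 with isotype and 80.2, 50.3 and 69.5 with PBS. The arms did not overlap, though PBS arrays were themselves spread, and the isotype level was 2.97-fold lower (-1.57 ± 0.227; adjusted p = 5.73e-06). ANKRD37, an ankyrin repeat protein and a known target of hypoxia-inducible factor, read 122, 112 and 122 with isotype and 295, 275 and 273 with PBS. Within each arm these values were close, and the isotype level was 2.37-fold lower (-1.24 ± 0.149; adjusted p = 4.17e-08). KDM3A, a histone H3 lysine demethylase, read 242, 241 and 236 with isotype and 377, 365 and 423 with PBS. Every isotype array was again below every PBS array, by 1.62-fold on the group means (-0.69 ± 0.101; adjusted p = 6.38e-06).

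VEGFA, the angiogenic growth factor, moved least of the 5. It read 313, 359 and 361 with isotype and 488, 422 and 470 with PBS (-0.42 ± 0.0995; adjusted p = 0.016). The call ended without isotype replicate 1 (adjusted p = 0.161), PBS replicate 1 (0.13) or PBS replicate 3 (0.0578). BHLHE40, a transcriptional repressor of the circadian system that also responds to hypoxia, is not on the list and fell by 0.64 ± 0.104 (adjusted p = 7.4e-05), from 193, 168 and 203 with PBS to 117, 120 and 124 with isotype. ADM, DDIT4, ANKRD37, KDM3A and BHLHE40 stayed called without any single array of the 6. With GRANTA-519 arrays alone ADM (adjusted p = 0.17), KDM3A (0.12), BHLHE40 (0.24) and VEGFA (0.186) were not called, which left 2 of the 20 list members, DDIT4 and ANKRD37. With the 6 control arrays alone the count was also 2. Averaging probe sets ended the calls of BHLHE40 (adjusted p = 0.633) and VEGFA (0.535), and median centring that of VEGFA (0.0851).

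The remaining 15 list members did not pass. Of the glycolytic enzymes among them, hexokinase HK2 was at -0.19 (adjusted p = 0.69), ENO1 at -0.07, ALDOA at -0.01, PGK1 at 0.02 and LDHA at 0.07. A pair of regulators gave larger values that missed the threshold, the oxygen-sensing prolyl hydroxylase EGLN3 at -0.80 (adjusted p = 0.44) and the glycolytic activator PFKFB3 at -0.56 (adjusted p = 0.21). The glucose transporter SLC2A1 stood at -0.32 (adjusted p = 0.44) and the mitophagy receptor BNIP3 at -0.22 (adjusted p = 0.96).

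**Figure D2:**
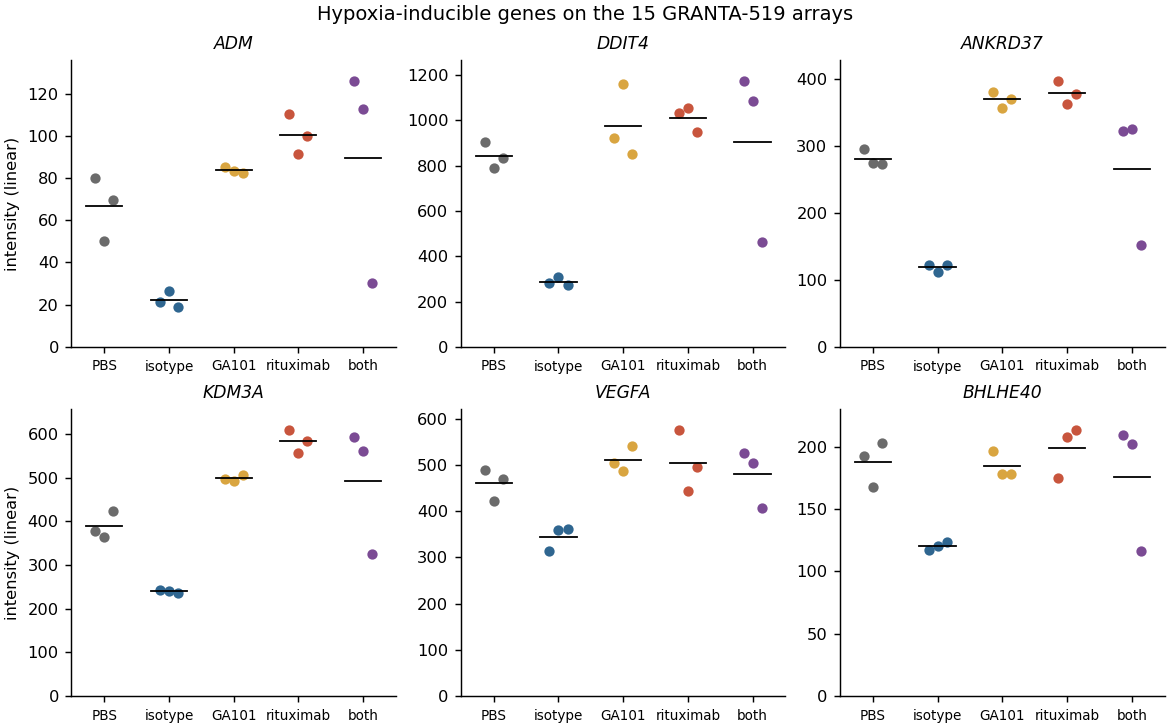
Intensity (linear, from 0) of 6 hypoxia-inducible genes on the 15 GRANTA-519 arrays by treatment, with 1 point per array and a line at the mean of 3. The isotype arrays lie below every PBS array in all 6 panels, and the third array given both CD20 antibodies lies below the other 2 of its arm in each.

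The 250 bases before the start site were read for the genes that fell most, to show where the core of the hypoxia response element lies. The core was searched as ACGTG or GCGTG on both strands, a choice made after the values were seen. Of the 5 fallen members, 4 have an entry in the RefSeq promoter table (GRCh38.p14), and they are printed 5′ to 3′ with each match in capitals.
ADM, chr11:10304823-10305072, plus strand: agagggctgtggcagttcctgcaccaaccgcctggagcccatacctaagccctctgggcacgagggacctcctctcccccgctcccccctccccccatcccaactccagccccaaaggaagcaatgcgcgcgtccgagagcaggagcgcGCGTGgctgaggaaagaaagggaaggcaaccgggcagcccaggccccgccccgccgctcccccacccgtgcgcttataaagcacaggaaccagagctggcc
DDIT4, chr10:72273674-72273923, plus strand: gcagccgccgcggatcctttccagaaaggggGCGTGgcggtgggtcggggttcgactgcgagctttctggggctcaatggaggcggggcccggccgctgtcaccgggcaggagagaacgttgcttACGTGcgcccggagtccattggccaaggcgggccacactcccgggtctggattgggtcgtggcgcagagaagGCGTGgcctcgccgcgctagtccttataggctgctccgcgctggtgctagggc
ANKRD37, chr4:185396591-185396840, plus strand: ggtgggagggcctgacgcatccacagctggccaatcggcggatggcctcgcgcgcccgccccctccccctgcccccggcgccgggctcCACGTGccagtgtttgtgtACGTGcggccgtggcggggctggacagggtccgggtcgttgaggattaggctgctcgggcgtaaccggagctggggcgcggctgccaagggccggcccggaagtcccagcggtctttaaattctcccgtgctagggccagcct
KDM3A, chr2:86441121-86441370, plus strand: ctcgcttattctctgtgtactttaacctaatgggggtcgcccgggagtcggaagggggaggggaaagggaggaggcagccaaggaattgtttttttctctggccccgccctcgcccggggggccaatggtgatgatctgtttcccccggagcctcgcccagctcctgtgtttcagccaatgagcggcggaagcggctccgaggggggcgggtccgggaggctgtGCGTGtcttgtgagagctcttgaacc
All 4 held a match, DDIT4 at 3 places and ANKRD37 as 2 cores that overlap in a palindrome, CACGTG, plus another downstream. The palindrome is also the E-box. Matches were common: 13 of the 16 tested list members with an entry held one, as did 43.1% of all 27305 promoters of this length. A match describes letters only and does not show that a factor binds there.

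The isotype minus PBS change of most of these genes set GRANTA-519 apart from the other lines. In Z138, HBL-2, JEKO-1 and REC-1, 0 members of the hypoxia and glycolysis list were called. Of all genes, 1.69%, 0.937%, 1.07% and 0.202% were lower with isotype there. List medians there were -0.0010, -0.047, 0.0081 and -0.013. Of the 114 genes called in GRANTA-519, 56 had the same sign in all 4 other lines and 64 were called in none of them. The matching shares over all genes tested were not counted, so neither count is read further. The GRANTA-519 change less the mean change of the other 4 lines passed the same threshold for 28 genes (0.202%), 16 lower (0.115%) and 12 higher (0.0865%). Among the 16 were 4 of the 5 fallen list members. DDIT4 changed by 0.06, -0.09, -0.06 and -0.36 in the other lines, which left a difference of -1.44 ± 0.200 (adjusted p = 9.5e-06). For ADM the other lines gave -0.46, -0.43, 0.24 and -0.12, and the difference was -1.38 ± 0.253 (adjusted p = 0.0016). ANKRD37 differed by -1.06 ± 0.167 (adjusted p = 8.6e-05) and KDM3A by -0.71 ± 0.113 (adjusted p = 1.05e-04). VEGFA differed by -0.34 (adjusted p = 0.28) and did not pass. BHLHE40, at 0.31, -0.19, 0.36 and 0.24 in the other lines, differed by -0.82 ± 0.116 (adjusted p = 1.03e-05). CXCR4, the chemokine receptor that guides B cells to lymphoid tissue and marrow, fell from 660, 721 and 653 to 475, 491 and 516 in GRANTA-519 (-0.46 ± 0.0836; adjusted p = 6.15e-04). Its difference from the other lines, where changes were -0.10 to 0.04, was -0.44 (adjusted p = 0.014), and this call ended without isotype replicate 1 (adjusted p = 0.0792) or PBS replicate 2 (0.102).

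**Figure D3:**
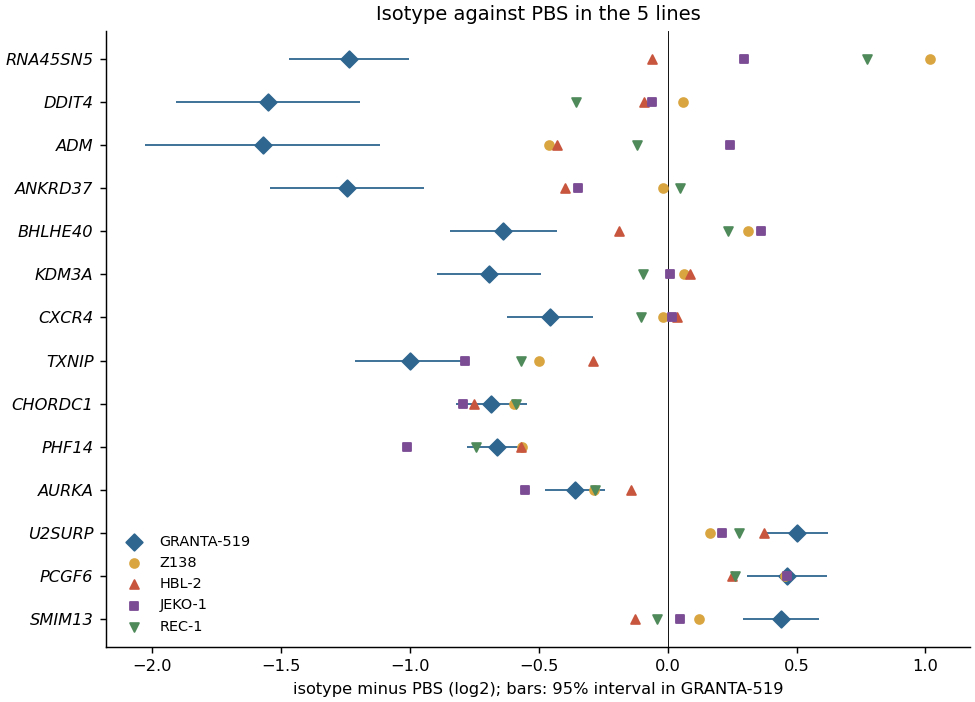
Isotype minus PBS change (log2) of 14 genes in GRANTA-519 (blue diamonds, with 95% intervals) and in the other 4 lines (3 and 3 arrays each). For DDIT4, ADM, ANKRD37 and KDM3A the GRANTA-519 interval lies below all 4 other values, while CHORDC1 and PHF14 are below 0 in all 5 lines.

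The transcript assigned to RNA45SN5, a 45S ribosomal RNA precursor that is cut into the RNAs of the ribosome, had the smallest p of the difference between lines. It read 441, 532 and 610 with isotype and 1246, 1174 and 1279 with PBS. The arms were widely separated, and the isotype level was 2.36-fold lower (-1.24 ± 0.117; adjusted p = 3.84e-11). In Z138 and REC-1 it rose instead, by 1.02 and 0.77, and in HBL-2 and JEKO-1 the values were -0.06 and 0.30. The difference was -1.74 ± 0.130 (adjusted p = 6.7e-15). Another probe set gave -1.02. Ribosomal DNA has near-identical copies, so which copy was measured is uncertain. Proteins of the ribosome gave no call among 17 tested, with a median of 0.09.

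Several falls were shared with other lines. TXNIP, which restrains glucose uptake and binds thioredoxin, read 336, 272 and 243 with isotype and 564, 568 and 550 with PBS, a 2.00-fold lower level (-0.997 ± 0.107; adjusted p = 2.01e-09). Its other probe sets gave -0.69 and -0.75. It also fell in Z138 (-0.50), JEKO-1 (-0.79) and REC-1 (-0.57), and read -0.29 in HBL-2 (adjusted p = 0.25). The GRANTA-519 difference from them was -0.46 (adjusted p = 0.09). TXNIP was the 1 called gene among 7 tested on the list of TXNIP and the arrestin domain family, where 0.562% of all genes fell. CHORDC1, an HSP90 co-chaperone, read 1026, 899 and 853 with isotype and 1610, 1428 and 1419 with PBS. No isotype array reached the PBS range, and the change of -0.68 ± 0.0689 (adjusted p = 2.86e-10) stood beside -0.60, -0.75, -0.80 and -0.59 in Z138, HBL-2, JEKO-1 and REC-1, all called. PHF14, a PHD finger protein that binds histones, read 522, 425 and 452 with isotype and 732, 721 and 751 with PBS (-0.66 ± 0.0581; adjusted p = 5.08e-12). It too was called lower in all 4 other lines. A weaker PHF14 probe set, averaging 105 with isotype and 74.3 with PBS, went the other way, at 0.51. So did a dim CHORDC1 probe set, at 0.33. Averaging probe sets ended both calls, with PHF14 at -0.075 (adjusted p = 0.924) and CHORDC1 at -0.18 (0.869).

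Besides these, the largest falls included PUS1, a pseudouridine synthase (-0.77 ± 0.155; adjusted p = 0.0028), which lost its call without isotype replicate 3 (adjusted p = 0.0738). SCAMP4, a secretory carrier membrane protein, rested largely on isotype replicate 2: it read 20.4, 4.89 and 31.0 with isotype and 34.5, 45.4 and 40.3 with PBS. Its change of -1.45 (adjusted p = 0.0153) became -0.66 without that array (adjusted p = 0.537), and the call also ended without PBS replicate 2 (adjusted p = 0.105). POFUT4, a protein O-fucosyltransferase, changed by -0.65 (adjusted p = 0.0471) and missed the threshold without any 1 of the 6 arrays (adjusted p = 0.0505 to 0.32).

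**Figure D4:**
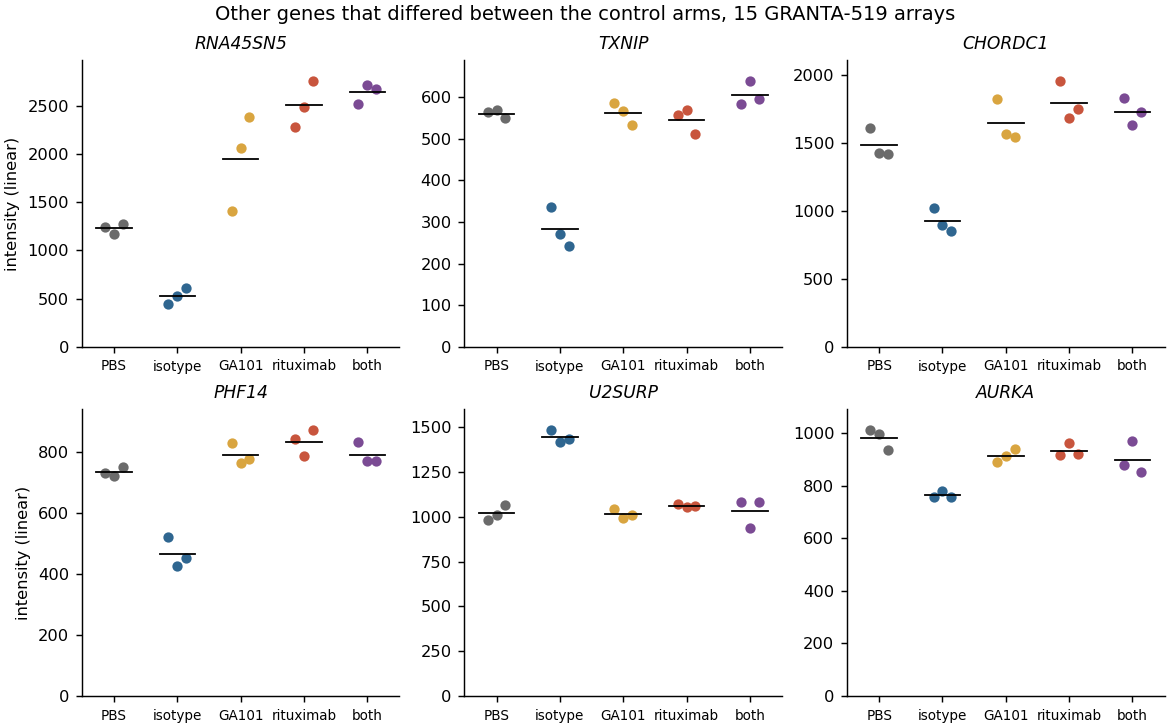
Intensity (linear, from 0) of 6 further genes on the 15 GRANTA-519 arrays by treatment, with 1 point per array and a line at the mean of 3. RNA45SN5, TXNIP, CHORDC1, PHF14 and AURKA are lowest with isotype, U2SURP is highest with isotype, and no isotype array overlaps a PBS array in any panel.

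Mitotic genes were lower by small amounts. Of 30 genes in the G2/M and mitosis list, 6 (20%) fell and 0 rose, where 0.562% of all genes fell. The list median was -0.18, against -0.03 for all genes, and 26 of 30 values were below 0. AURKA, a kinase of spindle assembly, read 757, 782 and 759 with isotype and 1011, 999 and 938 with PBS (-0.36 ± 0.0588; adjusted p = 8.14e-05). The spindle protein DLGAP5 fell by 0.28, the microtubule-associated CKAP2 by 0.26, the checkpoint kinase TTK by 0.24, cyclin B1 (CCNB1) by 0.22 and the kinetochore protein CENPF by 0.18. Of these, AURKA passed without each array in turn. Its other probe sets gave -0.19 and 0.08, and with probe sets averaged AURKA was at -0.15 and not called (adjusted p = 0.733). DLGAP5 lost its call without PBS replicate 1 (adjusted p = 0.0651). CKAP2 lost it without isotype replicate 1 (0.136) or PBS replicate 1 (0.111), and CCNB1 without isotype replicate 1 (0.125), PBS replicate 1 (0.0592) or PBS replicate 2 (0.111). TTK passed only without PBS replicate 3, and CENPF only without PBS replicate 1; their other adjusted p-values were 0.0784 to 0.235 and 0.0678 to 0.31. The count of fallen members was 2 without isotype replicate 1 or without PBS replicate 1, 3 without PBS replicate 2, 1 with GRANTA-519 arrays alone and 0 with the 6 control arrays alone. After median centring it was 0, with a list median of -0.26 where the median of all genes was -0.11.

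The proliferation marker MKI67 was at -0.0034 and CDK1 at 0.08 (adjusted p = 0.96). In the other lines, 23 of the 30 members were lower in JEKO-1 (1.07% of all genes), 11 in Z138 (1.69%), 5 in REC-1 (0.202%) and 1 in HBL-2 (0.937%). None of the 30 differed between GRANTA-519 and the mean of the other lines. The G1/S and DNA replication list had 0 of 26 called and a median of 0.05. Its largest values were 1.10 for E2F1 (adjusted p = 0.21), whose PBS replicate 1 stood apart at 11.2, and 0.32 for cyclin E2 (CCNE2; adjusted p = 0.25).

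Promoters of mitotic genes often carry a cell cycle genes homology region (TTTGAA or TTTAAA) and CCAAT boxes, which bind repressor complexes and NF-Y. CCNB1 is shown as an example from the same RefSeq table, with both motifs in capitals.
CCNB1, chr5:69166900-69167149, plus strand: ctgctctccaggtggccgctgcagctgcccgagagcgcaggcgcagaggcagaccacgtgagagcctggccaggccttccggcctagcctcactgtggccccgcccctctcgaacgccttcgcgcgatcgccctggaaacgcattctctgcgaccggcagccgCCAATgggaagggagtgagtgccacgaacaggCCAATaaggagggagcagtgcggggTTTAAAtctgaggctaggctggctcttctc
Searched on both strands, the homology region was in 20 of the 26 list members with an entry and in 22.1% of all promoters, and CCAAT was in 22 of 26 and in 33% of all. Of the 6 fallen members, 4 have an entry, and CCNB1, CENPF and DLGAP5 held both motifs.

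Splicing factors held 3 falls among 20 tested: the SR proteins SRSF6 (-0.32; adjusted p = 0.0136) and SRSF10 (-0.27; 0.00396), and the U2 snRNP subunit SF3B1 (-0.25; 0.023). The list median was -0.10, against -0.03 for all genes. Of all genes tested 0.562% fell, the share to set beside this count and those of the lists that follow. SRSF6 lost its call without isotype replicate 1 (adjusted p = 0.1) or PBS replicate 2 (0.123), SRSF10 without PBS replicate 1 (0.137), and SF3B1 without isotype replicate 1 (0.216), PBS replicate 1 (0.0786) or PBS replicate 2 (0.143). Without isotype replicate 1, PBS replicate 1 or PBS replicate 2, the count was 1. Of 16 heat shock genes and chaperones, CHORDC1 and the HSP110 chaperone HSPH1 (-0.20; adjusted p = 0.0229) fell, with a median of -0.09; HSPH1 passed only without PBS replicate 3, its other adjusted p-values being 0.0631 to 0.206. HSPA4L stood at -0.89 (adjusted p = 0.27). Of 21 chemokines, cytokines and receptors, CXCR4 fell, as did the dim receptor CXCR5 at -1.72 (adjusted p = 0.0403), which passed only without isotype replicate 2 (otherwise 0.0558 to 0.294). The other CXCR5 probe set, also dim, went the other way at 1.11. With probe sets averaged CXCR5 was at -0.30 and not called (adjusted p = 0.969). In mitochondrial import, 1 of 17 fell, the translocase subunit TIMM17A (-0.19; adjusted p = 0.023), and its call ended without isotype replicate 2 (0.0955), isotype replicate 3 (0.19), PBS replicate 1 (0.0982) or PBS replicate 2 (0.157).

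**Figure D5:**
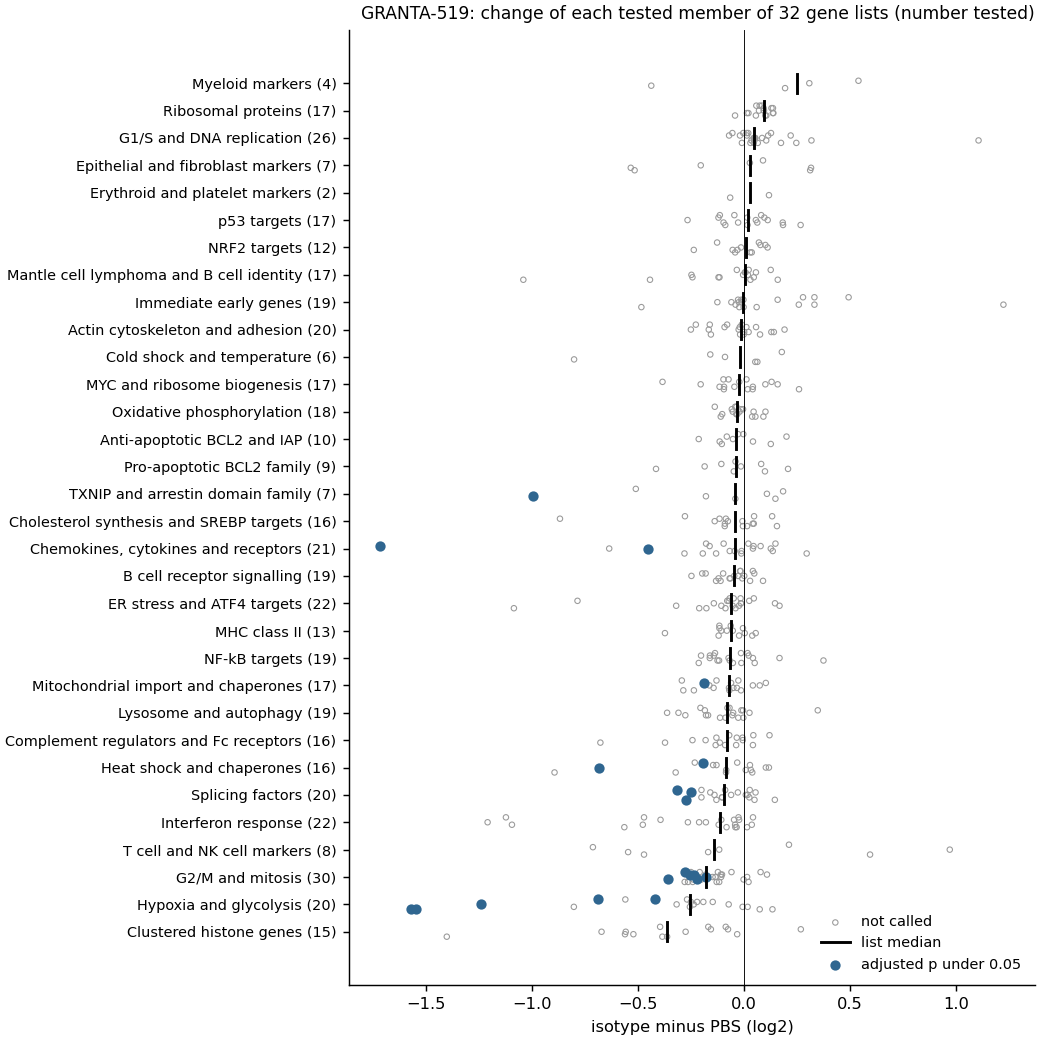
Isotype minus PBS change (log2) of each tested member of 32 gene lists, ordered by list median (black bars), with the number tested in brackets. Filled points are called members, all lower with isotype, and lie in 7 lists, of which hypoxia and glycolysis (5) and G2/M and mitosis (6) hold most.

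The other 25 lists held no called member. Clustered histone genes had the lowest median, -0.36 over 15 genes, with 14 values below 0. Their largest values were -1.40 for H2BC11 (adjusted p = 0.64) and -0.67 for H2BC15 (adjusted p = 0.43), on probe sets of low intensity. H3C2 changed by -0.56 (adjusted p = 0.19), yet its difference from the other lines passed, at -0.92 (adjusted p = 0.033). That difference ended without isotype replicate 1 (adjusted p = 0.21), isotype replicate 2 (0.0642), PBS replicate 2 (0.0691) or PBS replicate 3 (0.103). The immune and signalling lists described next are among these 25, unlike that of chemokines, cytokines and receptors. Among 22 interferon response genes the median was -0.11, with IFI27 at -1.21 (adjusted p = 0.82) and IFI44L at -1.12 (0.72). Immediate early genes (19) had a median of -0.0040, with NR4A3 at 1.22 (0.55), and NF-kB targets (19) of -0.07, with TNF at 0.37 (0.97). B cell receptor signalling (19) had a median of -0.05, with CD79B at -0.25 (0.30). Among 16 complement regulators and Fc receptors, which include receptors for immunoglobulin, the median was -0.08 and FCGR2A was at -0.68 (0.89).

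The 12 largest rises by the same rule on overlap and intensity were of varied function, and none reached 2-fold. U2SURP, a component of the U2 snRNP in splicing, read 1483, 1417 and 1432 with isotype and 983, 1010 and 1066 with PBS. The arms were far apart relative to their spread, a 1.42-fold rise (0.50 ± 0.0594; adjusted p = 3.12e-08). It was called higher in HBL-2 (0.37), JEKO-1 (0.21) and REC-1 (0.28), and was 0.16 in Z138 (adjusted p = 0.17). PCGF6, a subunit of a variant Polycomb complex, read 219, 227 and 219 with isotype and 166, 163 and 154 with PBS (0.46 ± 0.0766; adjusted p = 8.79e-05). SMIM13, a small membrane protein, read 173, 148 and 160 against 107, 114 and 134 (0.44 ± 0.073; adjusted p = 9.21e-05), and was -0.04 when its probe sets were averaged. ARMCX6 rose by 0.39 (adjusted p = 8.79e-05). These 4 passed without each array in turn. Median centring ended the calls of U2SURP (adjusted p = 0.0568), PCGF6 (0.335), SMIM13 (0.31) and ARMCX6 (0.292). None of the 12 largest rises was called in that setting. Among U2SURP, PCGF6, SMIM13 and ARMCX6, averaging probe sets ended the calls of U2SURP (adjusted p = 0.602) and SMIM13.

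The other 8 of the 12 largest rises each lost the call without at least 1 array. TSEN54, a subunit of the tRNA splicing endonuclease, rose by 0.80 and lost it without PBS replicate 3 (0.49; adjusted p = 0.0587). METTL6, a tRNA methyltransferase, rose by 0.46 and lost it without PBS replicate 2 (adjusted p = 0.0678). C5orf24 rose by 0.38 and lost it without isotype replicate 2 (0.141). RFX2, a transcription factor of ciliated cells, rose by 0.88 and lost it without isotype replicate 2 (0.173), isotype replicate 3 (0.231) or PBS replicate 1 (0.583), and its arrays were low, at 35.9, 48.9 and 52.9 against 15.2, 30.6 and 32.2. TEX2 (0.66) lost it without isotype replicate 2 (0.107) or PBS replicate 3 (0.0971). The small nucleolar RNA SNORD89 (0.55) lost it without isotype replicate 3 (0.149) or PBS replicate 1 (0.111). The arginine methyltransferase PRMT9 (0.42) lost it without isotype replicate 2 (0.0956), PBS replicate 1 (0.0665) or PBS replicate 3 (0.115). VPS36, of the ESCRT-II sorting complex, rose by 0.37 and passed only without isotype replicate 2, with 0.052 to 0.234 otherwise. Averaging probe sets ended the calls of TSEN54 (adjusted p = 0.369), METTL6 (0.812), RFX2 (0.585) and C5orf24, the last at 0.08. A TSEN54 probe set of like intensity, averaging 36.35 with isotype and 44.2 with PBS, went the other way at -0.26, and a dim one gave 1.70. The other C5orf24 probe sets gave -0.16, -0.15, 0.19 and 0.13.

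Values of the arms given antibodies against CD20 are set beside both controls. These comparisons share isotype and PBS arrays with the one above, and the called genes were chosen because the controls differ, so the positions below were not tested. For 71 of the 78 falls and 19 of the 36 rises, the mean of the 3 antibody arms was nearer to PBS than to isotype. Against that mean, 833 genes (6.01%) were called for isotype, 690 of them lower (4.97%), and 243 (1.75%) for PBS, 187 of them lower (1.35%). The first count fell to 478 without isotype replicate 2 and 547 without isotype replicate 3, and the other to 148 without PBS replicate 1 and 116 without PBS replicate 2. After quantile normalization the lower share was 52.4% of 494 genes for isotype, in place of 82.8%, and 55.8% of 147 for PBS, in place of 77.0%. With median centring it was 56.8% of 88 and 27.8% of 72.

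DDIT4 averaged 288 ± 19.7 with isotype, 843 ± 58.3 with PBS, 978 ± 162 with GA101, 1012 ± 57.4 with rituximab and 906 ± 387 with both (SD, n = 3). ADM averaged 22.2 with isotype, 66.7 with PBS, 83.7 with GA101, 101 with rituximab and 89.6 with both. The wide spread of the combination came from its replicate 3, which read 462 for DDIT4 and 30.1 for ADM, against 1173 and 1084, and 126 and 113, on its other arrays. That array was likewise lowest of its arm for ANKRD37 (153 against 322 and 325), KDM3A (326 against 592 and 561) and BHLHE40 (116 against 209 and 202). For RNA45SN5 it was not, at 2676 against 2521 and 2720. Over all genes, 4.97% were lower with isotype than in the antibody arms (median -0.07), and 1.35% were lower with PBS (median -0.04). In the hypoxia and glycolysis list 12 of 20 members were lower with isotype than in the antibody arms, with a median of -0.46. With PBS 2 of 20 were lower (KDM3A and the collagen prolyl hydroxylase P4HA1), with a median of -0.18. Without combination replicate 3 these were again 12, with a median of -0.52, and 4, with ADM and ANKRD37 added and a median of -0.28. For the G2/M and mitosis list these were 14 of 30 with a median of -0.20, and 0 of 30 with a median of 0.01.

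RNA45SN5 had its own order of arms: 528 with isotype, 1233 with PBS, 1949 with GA101, 2506 with rituximab and 2639 with both. Here PBS was also lower than the antibody arms, by 0.92 (adjusted p = 2.7e-09), and isotype by 2.15. U2SURP was alike in the other arms, at 1020 with PBS and 1017, 1062 and 1034 with antibodies, against 1444 with isotype. TSEN54 went the other way on the probe set used for it, with PBS the arm apart. PBS was at 22.4 ± 7.23, against 37.6 with isotype and 41.1, 38.1 and 47.3 with antibodies. The PBS minus antibody value was -0.95. Another TSEN54 probe set of like intensity read 36.35 with isotype and 44.2 with PBS. SRSF6 was among the 7 falls with the antibody arms nearer to isotype, with PBS above the antibody arms by 0.45 and isotype at 0.13 (adjusted p = 0.21).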

How the data were processed

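The deposited values are linear array intensity, which the submitters' processing notes credit to MAS5. The sources used here do not give its settings, and an equal mean per array was checked on the values. Per the labels' protocols, biotinylated cRNA came from 100 ng of total RNA. Of 54675 probe sets, 62 controls and those without exactly 1 gene symbol were left out. Values under 1 were set to 1 and taken to log2. A probe set was kept if its mean in at least 1 line exceeded an intensity of 11.7 (log2 3.55), the median over all probe sets, and the brightest stood for its gene.

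limma 3.58.1 in R 4.3.3 fitted 25 group means to 75 arrays (50 residual degrees of freedom) with an intensity trend, and Benjamini-Hochberg adjustment ran over all 13870 genes per comparison, two-sided. The number of arrays limits the precision. Members and lists were chosen with earlier results of these data known. The text names the 12 largest rises and falls among called genes with arrays that do not overlap and both arms above the median, the 5 largest differences from other lines each way, and up to 4 called members of each list. VEGFA, CCNB1, KCNQ1 and LINC01355, members beyond 4, and the reading of single members that did not pass were added after values were seen. The fit was tested on simulated data. Alternatives are given in the closing section.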

Additional observations from a re-analysis of the deposited data

Results flagged for a closer look

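The isotype minus PBS change differed between GRANTA-519 and the mean of the other 4 lines for 28 genes (limma, adjusted p under 0.05, a test of the difference itself). Among those named, the difference was negative for RNA45SN5 (-1.74), DDIT4 (-1.44), ADM (-1.38), ANKRD37 (-1.06), H3C2 (-0.92), BHLHE40 (-0.82), KDM3A (-0.71) and CXCR4 (-0.44). KCNQ1 gave -3.46, with an arm at or below the floor, and LINC01355 3.35, with a dim arm. It was positive for TSEN54 (0.71), SMIM13 (0.44), C5orf24 (0.38), KHDC4 (0.31) and AIDA (0.26).

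KHDC4 and AIDA were not called in GRANTA-519 itself, at 0.21 (adjusted p = 0.057) and 0.13 (adjusted p = 0.30). Without isotype replicate 1 or PBS replicate 2, the difference no longer passed for AIDA (adjusted p = 0.163 and 0.116) and KHDC4 (0.0558 and 0.0977). TSEN54 no longer passed without isotype replicate 1 (0.2), isotype replicate 2 (0.0724) or PBS replicate 3 (0.286). C5orf24 passed only without isotype replicate 3 among the 6 GRANTA-519 control arrays, with 0.0553 to 0.284 otherwise. With probe sets averaged, the difference no longer passed for TSEN54 (adjusted p = 0.705), C5orf24 (0.982), SMIM13 (0.988), KHDC4 (0.795) and AIDA (0.656). The same held for BHLHE40 (0.513) and LINC01355 (0.446).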

How the results depend on the processing

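The isotype minus PBS count of 114 was 33 after median centring, 17 with GRANTA-519 arrays alone and 4 with the 6 control arrays alone, and 81 to 155 leaving out an array. Lower genes were 68.4% of calls, but 56.4% after quantile normalization, 78.8% after median centring, 82.4% with GRANTA-519 arrays alone, and 56.8% and 58.3% without PBS replicates 1 and 2. Median centring shifted the median change of all genes to -0.11 (0.13 for PBS minus antibodies, -0.13 for the difference between lines). After centring ADM was -1.66 and DDIT4 -1.64, and less the median of all genes they were -1.54 and -1.52, as without centring. The difference between lines (28 genes) became 12 with median centring, 54 with a floor of 16, and 19 to 52 leaving out an array, the highest without PBS replicate 3. Isotype minus antibodies (833) became 494 with quantile normalization, 88 with median centring, and 478 to 822 leaving out an array. PBS minus antibodies (243) became 147, 72, 120 with averaged probe sets, 28 with GRANTA-519 arrays alone, and 116 to 230 leaving out an array.

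The replicate number as a block gave 155 genes for isotype minus PBS, 47 for the difference between lines, 1160 for isotype and 369 for PBS minus antibodies. Deviations of same-numbered isotype and PBS arrays correlated at 0.07, 0.04 and 0.12, against -0.076 to 0.008 for arrays of unlike number. Each array correlated best with its own number in 3 of 3 pairs. The main fit took no account of replicate number, and whether same-numbered arrays share a batch was not tested.

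Averaging probe sets turned CKAP2 to 0.091, SF3B1 to 0.035, SMIM13 to -0.041 and its line difference to -0.025, MS4A1 to -0.024, CCND1 to -0.18 and NR4A1 to -0.38. MS4A1 was -0.049 and CCND1 -0.038 with quantile normalization, and -0.041 and -0.069 with median centring. Leaving out an array gave CCND1 values of -0.039 (without PBS replicate 3) to 0.070 (without PBS replicate 2), and NR4A1 was -0.064 with a floor of 16. Of the 24 largest rises and falls, DDIT4, ANKRD37 and RNA45SN5 passed in all 17 alternatives. In 13 of the 24, other probe sets existed, 14 of the same sign and 10 opposite. The cause of these shifts was not tested.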
